A study of Mus musculus with 18 samples.

Results

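Accessible promoter sites that were found in the livers of all 7 inbred mouse strains form the subject here. The strains were C57BL/6J, DBA/2J, CBA/J, C3H/HeJ, BALB/cJ, AKR/J and A/J. BXH2/TyJ and BXH19/TyJ, 2 recombinant strains that descend from C57BL/6J and C3H/HeJ, were profiled in the same way. All 18 mice were males, 2 per strain, that ate a diet rich in fat and sucrose (HF/HS) for 8 weeks from the age of 8 weeks, so no group without the diet enters any value below. FAIRE-seq, which recovers nucleosome-free DNA from formaldehyde-fixed tissue and sequences it, gave 1 peak list per strain, in which the authors had combined both mice, so that no value of a strain has a replicate error.

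Members were chosen by merging the 7 inbred lists into 50775 sites and keeping autosomal sites under 2000 bp wide that carried a peak in every inbred list, lay within 1 kb of an annotated transcription start site (TSS) and were in neither of the lists of variable and common sites that the authors deposited. Of 50121 autosomal sites, 13909 (27.8%) were called in all 7 lists, and 12941 of these were under 2000 bp wide. Removing 144 variable and 907 common sites left 11890 sites. Of these, 7390 (62.2%) lay within 1 kb of a TSS and are the members, and the other 4500 are called distal shared sites below. Members make up 14.6% of the union. The removed variable and common sites included 75 and 672 sites near a TSS, so that the members are not all shared promoters.

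Promoters are the stretches of DNA around a TSS on which RNA polymerase II and the general transcription factors assemble. Many mammalian promoters, above all those of housekeeping genes, lie in CpG islands, which are rich in G, C and unmethylated CpG and are kept free of nucleosomes in most tissues, whereas many promoters of genes used by 1 tissue are poor in CpG and open only where their factors are present. FAIRE recovers both kinds, and the height of a peak reflects how much nucleosome-free DNA was recovered there.

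The signal of a peak is the score of the authors' peak caller, F-seq, on a scale of its own in each list, with medians between 0.118 in DBA/2J and 0.64 in BALB/cJ among the inbred strains. It was therefore turned into a percentile within each list, from 0 for the weakest to 100 for the strongest peak. The members were ranked by the mean of this percentile over the 7 strains, so the order of the members and the values of both ends are a description of the ranking and carry no test.

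Reference sequences just upstream of the TSS (mm9, 150 bases before the TSS, 5′ to 3′ on the strand of the gene, no annotated exon inside) are shown for members at the ends of the ranking and for 2 of the 8 members whose percentile varied most between strains. Capitals mark matches on either strand to the motifs listed below. The first 3 belong to members with the highest mean percentile. Gm10800 (chr2:98507459-98507608, minus strand) and Gm10801 (chr2:98502244-98502393, plus strand) are predicted genes less than 5 kb apart. Their windows are 38.7% and 37.3% GC, with 2 and 1 CpG dinucleotides. Both hold a CCAAT box, Gm10800 also CAAAGT and Gm10801 a TATA box. The window of 1810055G02Rik (chr19:3708183-3708332, plus strand) is 66.7% GC with 16 CpG, and holds a CCAAT box and the core CCGGAA read by ETS factors.
Gm10800: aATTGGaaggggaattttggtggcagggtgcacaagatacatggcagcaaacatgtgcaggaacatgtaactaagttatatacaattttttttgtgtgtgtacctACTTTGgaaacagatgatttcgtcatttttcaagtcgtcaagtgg
Gm10801: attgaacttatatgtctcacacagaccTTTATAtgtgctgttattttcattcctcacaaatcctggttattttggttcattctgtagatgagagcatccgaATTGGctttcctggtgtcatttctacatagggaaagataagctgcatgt
1810055G02Rik: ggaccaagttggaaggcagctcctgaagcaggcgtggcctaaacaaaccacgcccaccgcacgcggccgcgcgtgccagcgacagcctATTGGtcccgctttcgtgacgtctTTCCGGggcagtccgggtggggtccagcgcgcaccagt

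The next 3 windows belong to members with the lowest mean percentile. They are those of Gm572 (chr4:148017276-148017425, plus strand), Krt23 (chr11:99354452-99354601, minus strand) and Gli1 (chr10:126778646-126778795, minus strand), and none of the 12 motifs is in them. They hold 0, 3 and 7 CpG. For Gm572 and Gli1 the accessible site lies beside the TSS, and no base of the window falls in the site.
Gm572: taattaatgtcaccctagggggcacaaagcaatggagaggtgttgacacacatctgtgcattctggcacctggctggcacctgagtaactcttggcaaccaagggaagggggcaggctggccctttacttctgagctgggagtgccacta
Krt23: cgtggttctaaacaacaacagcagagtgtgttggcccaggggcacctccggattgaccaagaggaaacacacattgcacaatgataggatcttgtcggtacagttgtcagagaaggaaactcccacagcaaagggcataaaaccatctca
Gli1: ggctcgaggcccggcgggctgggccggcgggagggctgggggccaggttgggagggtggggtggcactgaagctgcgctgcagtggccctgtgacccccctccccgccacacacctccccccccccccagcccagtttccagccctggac

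The last windows belong to members with a large spread between strains. The window of Ctnnb1 (chr9:120842368-120842517, plus strand) has 23 CpG, 3 GC boxes and a CCAAT box. The window of Mrps30 (chr13:119176060-119176209, minus strand) has 5 CpG and 2 CCAAT boxes.
Ctnnb1: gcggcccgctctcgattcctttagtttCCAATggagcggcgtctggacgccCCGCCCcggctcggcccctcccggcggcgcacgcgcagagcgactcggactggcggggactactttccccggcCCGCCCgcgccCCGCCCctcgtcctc
Mrps30: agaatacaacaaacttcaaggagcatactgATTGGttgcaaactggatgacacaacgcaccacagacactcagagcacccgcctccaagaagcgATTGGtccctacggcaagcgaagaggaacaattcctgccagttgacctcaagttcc

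The inbred lists held 26769 to 30613 peaks. The list of A/J stood apart from the other inbred lists in several measures, so results are given with and without it. Over the members, the Spearman correlation of percentiles between strains was 0.467 to 0.764 for the 6 pairs with A/J and 0.809 to 0.899 for the 15 pairs without it. Over the distal shared sites it was 0.162 to 0.479 and 0.588 to 0.824. These correlations run across sites, which are not replicates, and the lists share the genome and the mapping, so no p is given.

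**Figure D1:**
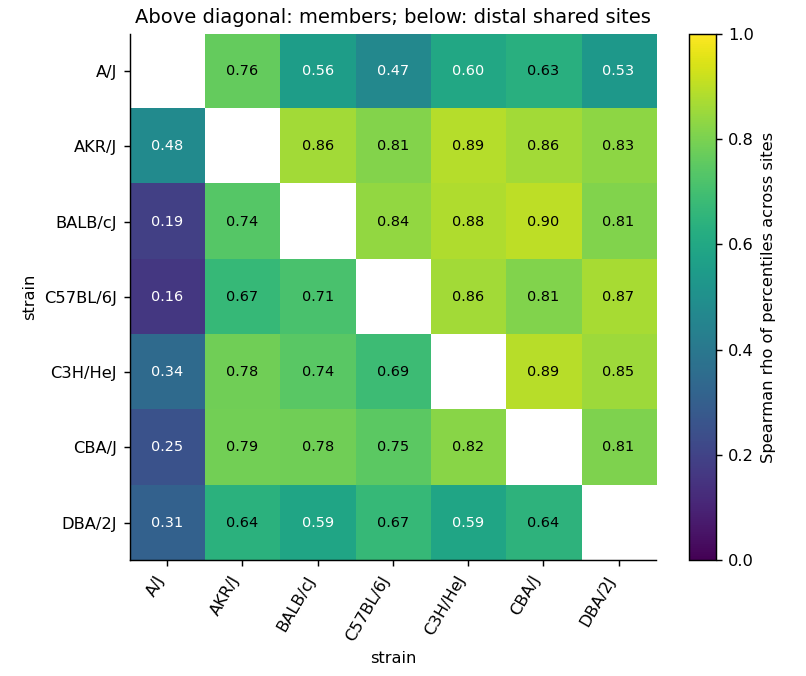
Spearman correlation of signal percentiles for each pair of inbred strains, over the 7390 members (above the diagonal) and the 4500 distal shared sites (below it), on a colour scale from 0 to 1. The row and the column of A/J hold the lowest values, from 0.467 to 0.764 over members and 0.162 to 0.479 over distal shared sites, while BALB/cJ and CBA/J agree best with 0.899.

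The percentile of A/J followed base composition more closely than that of the other strains. Across the members, the correlation of the percentile with the GC content of the site was 0.498 in A/J and -0.079 to 0.157 in the other 6 inbred strains. In the 1848 members with the least GC (up to 56.6%), the median percentile was 64.3 in A/J and 74.95 to 79.0 in the other inbred strains. In the 1848 with the most GC (from 63.3%), it was 88.6 in A/J and 72.7 to 82.8 in the others. The difference between A/J and the mean of the other 6 went from a median of -10.5 points in the former to 11.2 in the latter. A/J was the highest of the 7 strains at 2936 members (39.7%) and the lowest at 1770 (23.95%). BXH2/TyJ, which the rule did not use, had a correlation of 0.359 with GC and medians of 72.9 and 88.0 in these sets. Whether base composition, depth or the preparation of the libraries has a part in this was not tested, and with 1 list per strain the strain and its libraries cannot be told apart.

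**Figure D2:**
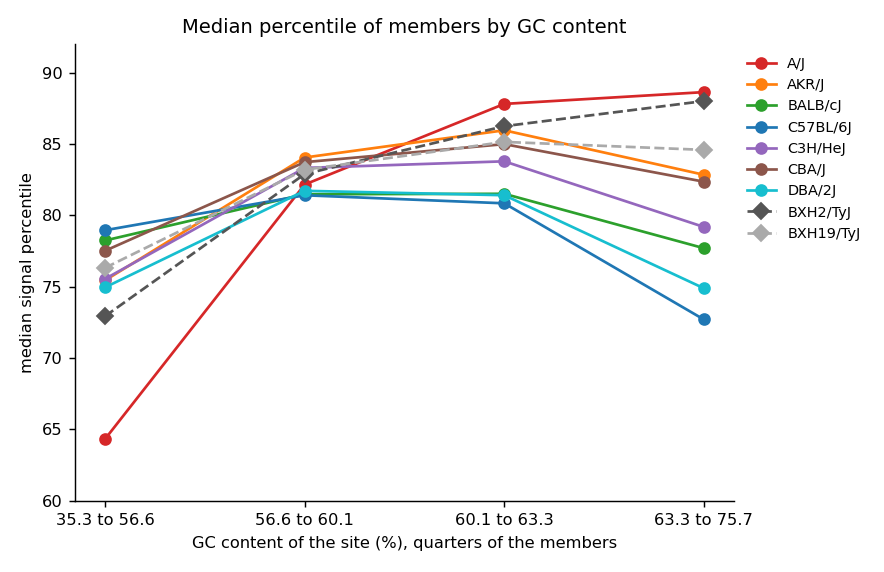
Median signal percentile of the members in each list (y axis, drawn from 60 to 92) in 4 equal groups by the GC content of the site in percent (x axis), solid lines for inbred and dashed lines for recombinant strains. A/J climbs from 64.3 to 88.6, while C57BL/6J goes from 79.0 to 72.7.

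Of the members, 6831 (92.4%) overlapped a TSS and 559 lay beside one. The median width was 1041 bp (301 to 1999 bp). The strongest point of the peak, as the median over strains, was 76 bp upstream of the TSS at the median member, within 100 bp of the TSS at 50.2% and within 250 bp at 77.2% of the members, and downstream of it at 17.5%. By annotation, this point was intergenic at 4168 members, in an exon at 1853 and in an intron at 1369, with median mean percentiles of 82.6, 76.6 and 73.1. The position of the summit agreed closely between strains, with a median range of 45 bp over the 7 strains and of 42 bp at distal shared sites. Members that overlapped a TSS had a median mean percentile of 80.4 and those beside one 63.0.

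The nearest gene was protein-coding for 7154 members, with 6704 distinct genes. The others were assigned to 85 processed transcripts, 75 lincRNAs, 24 pseudogenes, 21 miRNAs, 13 snRNAs, 12 snoRNAs and 6 other RNAs. At 787 members (10.6%), protein-coding genes on opposite strands had a TSS within 1 kb, with a minus-strand TSS at or before a plus-strand one. The site need not lie between these TSSs. These members, called divergent here, had a median mean percentile of 84.9 and the others 78.5. By the count of protein-coding genes within 1 kb, the median rose from 64.9 at 236 members without one to 78.9 with 1 gene, 83.8 with 2 and 88.6 with 3 or more (23 members).

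Most members had a percentile of at least 50 in every strain, but a minority reached 75 in all of them. The mean percentile had a median of 79.2, and its 10th and 90th percentiles over members were 49.2 and 95.1. In all 7 strains, the percentile was at least 50 at 5025 members (68.0%), at least 75 at 2595 (35.1%) and at least 90 at 778 (10.5%). Only 42 members stayed under 50 in every strain. These shares are not given for distal shared sites, which also needed a peak in all 7 lists, so they are not shown to be particular to promoters. The SD over the 7 strains had a median of 7.92 points, or 6.203 without A/J. Members with a high mean varied less (Spearman correlation of mean and SD -0.835), as a percentile near 100 leaves no room above it.

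The first question was whether promoters and distal sites that pass the same call in all 7 strains differ in signal. The rule did not use signal to tell them apart. Width entered by the limit of 2000 bp for both. It also entered by the distance to a TSS, which was taken from the nearest edge of a site, so that a wider site reaches a TSS more easily. In every inbred strain the members were stronger than the distal shared sites. The median percentile of the members was 83.0 in A/J, 82.3 in AKR/J, 82.1 in CBA/J, 80.8 in C3H/HeJ, 79.7 in BALB/cJ, 78.7 in C57BL/6J and 78.3 in DBA/2J. At distal shared sites it was 45.9, 65.0, 67.5, 68.8, 67.8, 66.8 and 58.6 in the same order. The groups of medians did not overlap, and the difference was 17.8 ± 9.04 points (SD, n = 7 strains), positive in 7 of 7. An exact permutation test with flipped signs of the paired differences gave p = 0.015625 (two-sided), the smallest that 7 strains allow, and an adjusted p = 0.015625 over 3 comparisons. A/J had the widest difference with 37.1 points. Without A/J the difference was 14.5 ± 3.31 points (n = 6) and the exact p = 0.03125, again the smallest possible. The same sites were measured in every strain, and their percentiles correlated between strains. The 7 differences are therefore not independent of each other, which the test takes them to be, so its p is best read beside the values.

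Peaks at members were also wider. The median width of a strain's strongest peak was 809 bp in A/J, 631 in AKR/J, 856 in BALB/cJ, 589 in C57BL/6J, 815 in C3H/HeJ, 817 in CBA/J and 513 in DBA/2J, against 390 to 588 bp at distal shared sites. The difference was 232 ± 108 bp (SD, n = 7), positive in 7 of 7, with an exact two-sided permutation p = 0.015625 and an adjusted p = 0.015625, and 201 ± 76.0 bp without A/J (exact p = 0.03125). The limit of 2000 bp bears on this comparison, and without it the difference was 249.9 bp. The distance from the edge of a site bears on it too, and with the midpoint of a site within 1000 bp of a TSS the difference was 229.9 bp. DBA/2J and C57BL/6J had the narrowest peaks at members and the smallest differences, 115 bp and 110.5 bp. These 7 differences also come from the same sites in every strain and are not independent of each other.

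**Figure D3:**
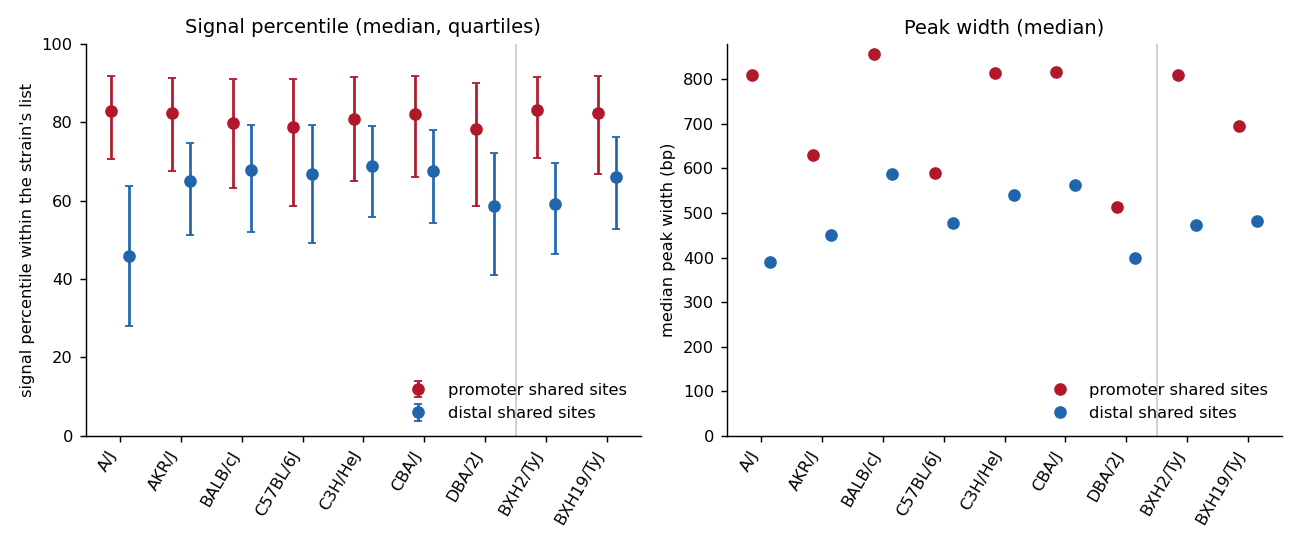
Left, median and quartiles of the signal percentile within each list (y axis) at promoter and distal shared sites by strain, and right, median peak width in bp from 0, with the recombinant strains to the right of the grey line. Promoter medians sit between 78.3 and 83.1 in all 9 lists, while distal medians run from 45.9 in A/J to 68.8 in C3H/HeJ.

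Strains agreed better on members than on distal shared sites. The mean absolute deviation of a strain's percentile from the mean of the other 6 was 8.24 ± 3.05 points at members and 12.6 ± 5.38 at distal shared sites (SD, n = 7). It was smaller at members in 7 of 7 strains, with differences of -1.93 points in AKR/J to -9.96 in A/J, and the mean difference was -4.35 ± 2.69 points (exact two-sided permutation p = 0.015625, adjusted p = 0.015625). Without A/J the difference was -3.42 ± 1.17 (n = 6, exact p = 0.03125). A strain's deviation is measured against the other strains, so the 7 values are not independent of each other, and the members' higher percentiles leave less room for deviation. The rule had also removed the deposited variable and common sites, which the authors chose by variation between strains. Of these, 75 of 144 variable and 672 of 907 common sites lay near a TSS. The comparison holds for the sites left, and the part of this removal in it was not tested.

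The 12 highest with a protein-coding gene had mean percentiles of 99.55 to 99.99, and all were called in BXH2/TyJ and BXH19/TyJ, which did not enter the ranking, with percentiles of at least 99.54 in both. They were 1063 to 1929 bp wide, all overlapped a TSS, 3 of them were divergent, and their summits lay in intergenic sequence at 7.

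Gm10800 (chr2:98506253-98507655) and Gm10801 (chr2:98502229-98503291) were first and second, with means of 99.99 and 99.97. Their signal was the highest of the named members in each inbred list. It was 68.3 to 144 for Gm10800 and 8.30 to 66.1 for Gm10801 in the inbred lists, while Hjurp, the next protein-coding gene, had 0.782 to 7.61. They were also the least rich in GC of the 12, with 36.4% and 35.3%, against 52.4% or more in the other 10. Of all 32-base words of these sites, 65.6% and 59.9% occur elsewhere in mm9, compared with at most 4.36% at the other 30 members named at either end of the ranking or for their spread. The part of repeated sequence in this signal was not tested. One member between them and Hjurp, 2610005L07Rik (rank 3, mean 99.88), is annotated as a processed transcript.

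Hjurp (chr1:90173465-90174706, mean 99.88) encodes the chaperone that loads the centromeric histone variant CENP-A. Prkaca (chr8:86496054-86497249, 99.73) encodes the catalytic subunit of protein kinase A, through which glucagon acts on the hepatocyte, and its percentiles ran from 99.62 in DBA/2J to 99.83 in A/J. Rps6ka5 (99.67) encodes the histone kinase MSK1, Cdk13 (99.63) a kinase of the RNA polymerase II tail and Dnajb1 (chr8:86131512-86132838, 99.65) a co-chaperone of heat shock protein 70. Plekha1 (99.68) encodes a phosphoinositide-binding protein, and Mphosph9 (99.61), Serf2 (99.55), 1810055G02Rik (99.73) and C230081A13Rik (99.68) complete the list. The 8 members with the smallest SD, 0.00306 to 0.139 points, were all among these 12. C230081A13Rik was the least even of them, with 98.82 in A/J and 99.67 to 99.94 in the other 6 strains.

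**Figure D4:**
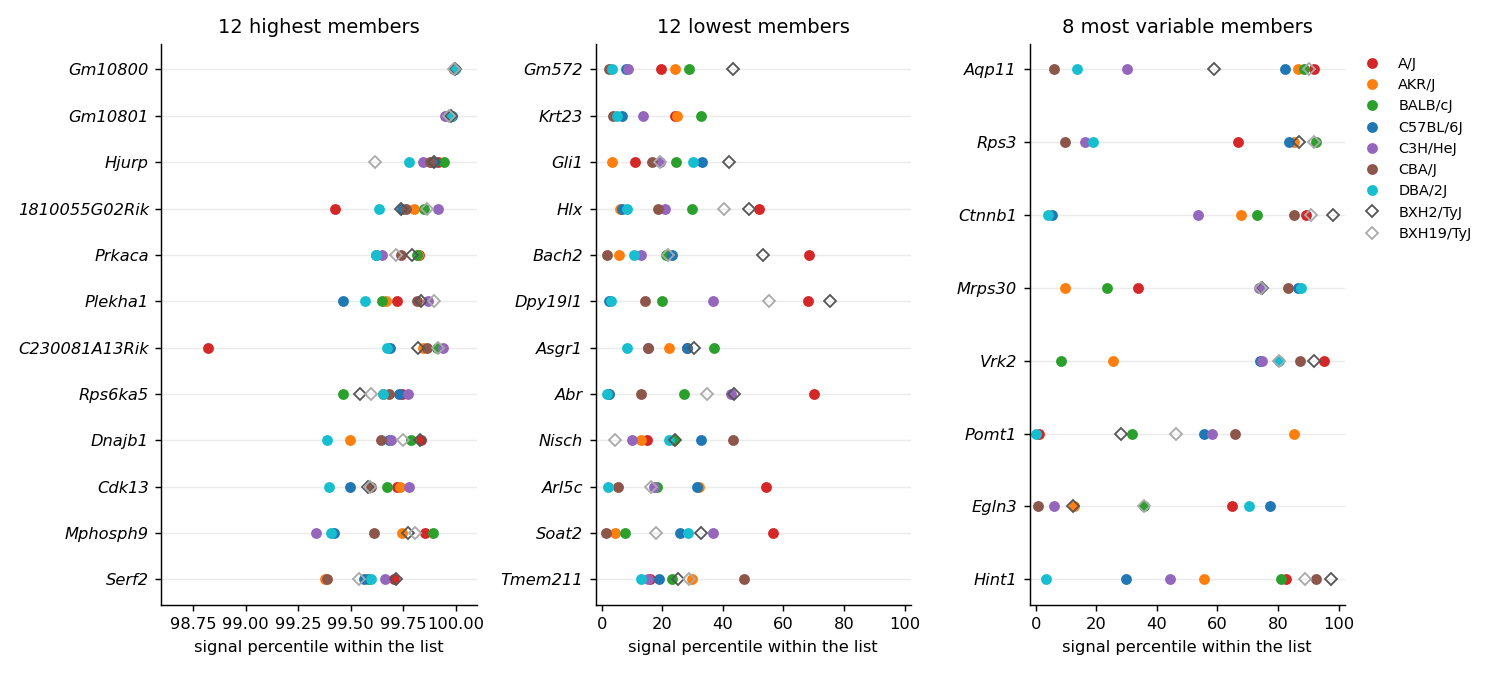
Signal percentile within the list (x axis) of the 12 highest, the 12 lowest and the 8 most variable members, 1 row per gene, filled circles for the 7 inbred and open diamonds for the 2 recombinant strains. The left panel is drawn over the top of the range only, and at Aqp11 and Rps3 C3H/HeJ, CBA/J and DBA/2J sit at 30.1 or below while the other inbred strains are at 66.8 or above.

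At the other end, the 12 lowest members had mean percentiles of 13.5 to 23.3 and SDs of 9.81 to 25.9. They were narrower (520 to 1487 bp, median 877.5) than the 12 highest (median 1310.5), 4 of the 12 lay beside a TSS without overlapping it, and none was divergent. The recombinant strains missed some of them: BXH2/TyJ called 10 and BXH19/TyJ 9 of the 12.

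Gm572 (chr4:148017806-148018698), a predicted gene, was the lowest. Its percentile was 19.4 in A/J, 24.2 in AKR/J, 28.7 in BALB/cJ, 7.91 in C57BL/6J, 8.59 in C3H/HeJ, 2.42 in CBA/J and 3.47 in DBA/2J. Krt23 (chr11:99354100-99354784), a keratin of epithelial cells, had the same order of strains, with 24.1, 24.8, 32.7, 6.59, 13.7, 3.84 and 5.09, and it was called in neither recombinant strain. At both, A/J, AKR/J and BALB/cJ were above the other 4 strains.

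Gli1 (chr10:126779232-126779751), the transcriptional effector and target of hedgehog signalling, ranged from 3.39 in AKR/J to 33.1 in C57BL/6J. Hlx, a homeobox gene of the liver mesenchyme in development, and Bach2, a repressor of lymphocyte differentiation, had means of 20.4 and 20.6. Asgr1 (chr11:69869098-69869946), the asialoglycoprotein receptor subunit found on hepatocytes, was between 8.46 in DBA/2J and 37.0 in BALB/cJ. Soat2 (chr15:101980551-101981806), which makes cholesterol esters in the hepatocyte, was between 1.56 in CBA/J and 56.6 in A/J. Both are used by the liver and nevertheless sat near the bottom of the ranking. Nisch, Arl5c, Tmem211, Dpy19l1 and Abr had means of 21.0 to 23.3. A/J was the highest inbred strain at 6 of the 12, and at Bach2, Dpy19l1 and Abr it stood at 68.0 to 70.2 while no other inbred strain was over 42.6.

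The most variable members were not the weakest. The 8 with the largest SD, 32.3 to 38.5 points, had mean percentiles of 38.3 to 63.6 and were called in all 9 lists. A percentile spreads this far only with values toward both ends of its scale, so means away from the ends follow from the scale. They were in neither of the deposited lists of variable and common sites, by the rule. Aqp11 (chr7:104885809-104887164), an aquaporin of the endoplasmic reticulum, had 91.8 in A/J, 86.4 in AKR/J, 88.4 in BALB/cJ and 82.3 in C57BL/6J, but 30.1 in C3H/HeJ, 6.00 in CBA/J and 13.7 in DBA/2J. Rps3 (chr7:106631590-106632557), a ribosomal protein of the small subunit, had 66.8, 85.3, 92.4 and 83.4 in the first 4 strains and 16.2, 9.59 and 18.9 in the last 3. So the same 3 strains were low at both, which lie less than 2 Mb apart on chromosome 7. Low strains did not always have narrow peaks. At Aqp11 the peak was 1240 bp wide in C3H/HeJ, 1356 bp in CBA/J and 364 bp in DBA/2J, against 959 to 1345 bp in the first 4 strains. At Rps3 it was 402 to 695 bp in the last 3 strains and 565 to 899 bp in the first 4. C3H/HeJ is a parent of the recombinant strains, which stood at 59.0 (BXH2/TyJ) and 90.3 (BXH19/TyJ) for Aqp11 and 87.0 and 91.98 for Rps3.

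Ctnnb1 (chr9:120842019-120842741), which encodes β-catenin, the mediator of Wnt signalling and of zonation in the liver lobule, had 5.28 in C57BL/6J and 4.199 in DBA/2J and 53.6 to 89.1 in the other 5 inbred strains. Mrps30, a mitochondrial ribosomal protein, had 33.7 in A/J, 9.84 in AKR/J and 23.5 in BALB/cJ and 73.9 to 87.6 in the other 4. Vrk2, a kinase, was low in AKR/J (25.6) and BALB/cJ (8.36) alone, with 74.1 to 94.99 in the others. In these 3, the percentiles of the low and the high strains did not overlap and lay more than 40 points apart. Their peak widths differed less clearly. The low strains had narrower peaks at Ctnnb1 (419 and 459 bp against 568 to 680 bp). At Mrps30 the widths overlapped (246 to 448 bp against 281 to 1081 bp), as at Vrk2 (737 and 920 bp against 300 to 779 bp).

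Pomt1, Egln3 and Hint1 had a more even spread. Pomt1, a protein O-mannosyltransferase, ran from 0.142 in DBA/2J and 1.17 in A/J to 85.1 in AKR/J, where the peak was also widest, with 1943 bp against 526 bp in A/J and 809 bp in DBA/2J. Egln3, an oxygen-sensing prolyl hydroxylase, ran from 0.833 in CBA/J, with a peak of 1190 bp, to 77.2 in C57BL/6J, with a peak of 306 bp, while A/J, at 64.8, had one of 1008 bp and AKR/J, at 12.8, one of 415 bp. Hint1, a purine nucleoside phosphoramidase, ran from 3.47 in DBA/2J, with a peak of 158 bp, to 92.7 in CBA/J, with a peak of 1150 bp.

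A gap of at least 40 points between neighbouring strains in the sorted percentiles was present at 139 members (1.88%). This limit was chosen after the values were seen. At 119 of them a single strain was low, A/J at 64, DBA/2J at 34, C57BL/6J at 7, AKR/J at 5, BALB/cJ and CBA/J at 4 each and C3H/HeJ at 1. At 6 a single strain was high, A/J at 5 of them, among them Bach2. At the other 14 the strains split into groups, and the split of C57BL/6J and DBA/2J from the other 5 was the most frequent, at 7 members. These were Ctnnb1, Glrx2, Arhgap42, Dennd1a, Pip4k2c, Ppfibp1 and Ppp1r12a. C57BL/6J and DBA/2J also had the narrowest peaks at members of all 7 lists, and the part of this in their split was not tested.

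The parents of the recombinant strains differed by at least 40 points at some members. C57BL/6J was the lower parent at 123. There BXH2/TyJ was nearer to C3H/HeJ at 111 and BXH19/TyJ at 114. Over all members, C57BL/6J was the lowest of the inbred strains at 22.3% and C3H/HeJ at 5.59%. How often each recombinant strain was nearer to either parent over all members is not given here. The part of low values in the C57BL/6J list in these counts was not tested. C3H/HeJ was the lower parent at 30, where BXH2/TyJ was nearer to C57BL/6J at 18 and to C3H/HeJ at 10, and BXH19/TyJ at 11 and 17, with 2 not called in each. Fig4, which encodes a phosphoinositide phosphatase, had the widest of these differences, with 88.7 in C57BL/6J and 10.99 in C3H/HeJ. All other inbred strains were at 86.5 or above, BXH2/TyJ was at 86.1 and BXH19/TyJ at 29.8. Genotypes of the recombinant strains were not used here, and these members were chosen for the values of the parents, so no test is given.

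The recombinant strains offer a check of the calls outside the 7 lists. Of the 7390 members, 7347 were called in BXH2/TyJ (99.4%, exact Clopper-Pearson 95% interval 99.2 to 99.6%) and 7340 in BXH19/TyJ (99.3%, 99.1 to 99.5%). The intervals cover counting error only. Of all autosomal sites, which need no peak in either parent, 54.7% were called in BXH2/TyJ and 55.7% in BXH19/TyJ. Of the distal shared sites, which like the members have a peak in both parents, 97.8% (97.4 to 98.2%) and 98.4% (98.0 to 98.8%) were called. Both recombinant strains had a peak at 7309 members (98.9%). The mean percentile over the inbred strains correlated across members with the percentile in BXH2/TyJ (Spearman 0.792, 7347 members) and BXH19/TyJ (0.894, 7340 members), as a description without a p. The 81 members missed in at least one of them were low (median mean percentile 40.6) and narrow (median 701 bp). The 12 missed in both included Krt23 and Mamstr and, at the top, Ppih (chr4:118992793-118993420), a cyclophilin of the spliceosome with a mean percentile of 92.7, and Hgsnat with 82.8. A site without a call can still be accessible below the limit of the peak caller.

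Members were rich in CpG. In the window from 250 bases before to 50 after the TSS, 76.4% of the 7154 members with a protein-coding gene were CpG-island-like, which here means at least 50% GC and an observed-to-expected CpG ratio of at least 0.6 over 300 bases. This share was 42.8% over all 21418 autosomal protein-coding promoters, 27.0% over the promoters without a member and 9.42% over windows of the same length at distal shared sites. It was 90.5% in the 1789 members with the highest and 61.9% in the 1789 with the lowest mean percentile, called the upper and lower group below. Over all members, 5553 CpG-island-like windows had a median mean percentile of 82.7 and the other 1837 one of 68.3. The median in A/J was 86.2 and 67.1 for these classes, and the median of the mean over the other 6 inbred strains was 82.3 and 70.1, so the order did not rest on A/J. GC content alone followed the rank weakly (Spearman 0.106 across members).

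The shares of promoters that hold a given motif also differed by rank. Each motif was searched on both strands of the 300-base window as its exact letters, and a match is a description of the letters and not of binding. The GC box GGGCGG, read by SP and KLF factors, was in 68.3% of the members, 43.7% of all promoters and 19.2% of the distal windows, and in 81.9% of the upper against 58.2% of the lower group. The CCAAT box of NF-Y was in 39.5% of the members and 37.6% of all promoters, so that it barely set the members apart, but in 52.3% of the upper and 28.9% of the lower group. CCGGAA (ETS factors) was in 31.9% of the members and 17.7% of all promoters, TGCGCA (part of the NRF1 site) in 16.0% and 9.48%, and ATGGCG (YY1) in 19.0% and 10.6%. All 3 were more frequent in the upper than in the lower group, with 36.2% and 24.9%, 20.5% and 10.6%, and 21.5% and 15.8%. CACGTG (E box) was in 10.8% and 7.78%, TGACGTCA (CREB and ATF) in 3.76% and 2.31%, and CTCGCGAG (ZBTB33) in 2.05% and 1.18% of members and all promoters.

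TATAAA, the TATA box, was in 5.35% of the members and 13.5% of all promoters, and in 3.69% of the upper against 7.38% of the lower group. CAAAGT, part of the repeat bound by HNF4A, was in 10.5% of the members, 14.0% of all promoters and 18.5% of the distal windows. TGANTCA, the AP-1 site, was in 3.82%, 6.93% and 10.6% of them. TTGCGCAA, the C/EBP palindrome, which contains the letters TGCGCA, was in 0.419% of the members and 0.201% of all promoters. The members with a TATA box had a median mean percentile of 74.7 and those without 79.4, compared with 84.3 and 75.9 for the CCAAT box.

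Lists of genes with known roles place the members in liver biology. Of 21418 autosomal protein-coding genes, 7537 (35.2%) had a member within 1 kb of a TSS, with a median of 81.6 for the mean percentile of the strongest member of a gene. The lists were written with earlier results of these data known, and a list is described only by its counts and its median beside these values. Genes without a member may have a shared site that was too broad or was in a deposited list (754 genes had a broad one), a site in 1 to 6 strains, or none.

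Of 24 secreted plasma proteins, the classic products of the hepatocyte, 13 (54.2%) had a member, with a median of 67.6. Apoe, the ligand that clears remnant lipoproteins, was the highest, with a mean of 96.3 ± 2.81 (SD over 7 strains) and a range of 92.7 to 98.7, and Vtn (vitronectin, at a site shared with Sarm1) followed with 90.4 ± 3.51. Apoc3, an inhibitor of lipoprotein lipase, had 76.0 ± 10.2, Fgg (fibrinogen γ) 73.4 ± 7.84, Apoh (at a site nearer to Prkca) 70.7 ± 18.5, Ahsg (fetuin) 69.4 ± 5.57, Ambp 67.6 ± 18.5 and Apoa4 63.9 ± 6.32. Serpinc1 (antithrombin) had 53.8 ± 23.2, Trf (transferrin) 53.2 ± 12.1, F2 (prothrombin) 46.9 ± 11.8, Plg (plasminogen) 46.9 ± 10.3 and Apob, the structural protein of VLDL, 43.2 ± 12.4. Ambp and Serpinc1 were far lower in A/J than in the mean of the other 6 strains, by -46.6 and -47.4 points. Alb itself had a site in 1 strain only, 9 of the 24 genes were called in 1 to 6 strains, and Apoa1 lay in a site 3033 bp wide. All but Apoe and Vtn of these members lay below the median of all members (79.2).

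Of 20 hepatocyte transcription factors, 12 had a member, with a median of 69.8, and 7 more had a shared site that was too broad. Among the members, Cebpd, a C/EBP factor of the acute phase, had 91.7 ± 4.92. The receptors Nr1h3 (LXRα, a sensor of oxysterols) and Nr0b2 (SHP, a repressor in bile acid feedback) had 83.1 ± 6.44 and 80.9 ± 3.41. Rxra, the partner receptor of LXRα, had 72.6 ± 14.5 and Nr1h4 (FXR, the bile acid receptor) 57.4 ± 15.9. Gata6 had 79.5 ± 4.86, Onecut2 79.2 ± 7.73 and Onecut1 67.0 ± 9.31. Foxa1, Prox1 and Hnf4a, which define the hepatocyte, had 43.5 ± 15.7, 41.6 ± 15.3 and 40.8 ± 7.09. At the only member of Hnf4a (chr2:163332193-163332970), no strain was above 48.04. A site at another TSS of the gene that the rule left out would not enter this value. Foxa1 was higher in A/J than in the mean of the other 6 strains by 28.9 points, and Nr1h4 differed by -31.6. The broad sites included those of Foxa2, Foxa3, Cebpa, Cebpb, Ppara and Gata4, 2073 to 3731 bp wide, so their width kept these genes out.

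Of 27 genes of lipid and sterol synthesis, 21 (77.8%) had a member, with a median of 88.3. The share was close to that of endoplasmic reticulum stress genes (77.3%), proteasome subunits (76.7%) and ribosomal proteins (76.5%). Acly, which supplies cytosolic acetyl-CoA, had 99.2 and a range of 98.4 to 99.6 over the strains, and the regulator Srebf2 95.9, while Scap, its escort protein, was the lowest with 54.7. Insig1, Fasn, Fads2 and Mlxipl were among those with broad shared sites. Glucose metabolism and insulin signalling gave 11 of 25 genes (44.0%) with a median of 79.1, from Gsk3a (91.0) to Akt2 (46.0), with Pck1, the entry to gluconeogenesis, at 79.2. There A/J was below the mean of the other 6 strains, with a difference of -30.1 points. G6pc and Slc2a2 lay in sites of the deposited variable list.

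In contrast, bile acid and drug metabolism gave 6 of 23 genes (26.1%), with a median of 71.9. Por, the electron donor of all microsomal cytochromes P450, had 98.47, and Nr1i3 (CAR, a sensor of drugs) 59.1. Cyp7a1, the rate-limiting enzyme of bile acid synthesis, had no site near a TSS in any inbred strain, and 14 of the 23 genes were called in 1 to 6 strains.

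Stress genes were among the strongest. Endoplasmic reticulum stress gave 17 of 22 genes (77.3%) with a median of 95.6. Ddit3 (CHOP) had 99.5, with 99.2 to 99.8 over the strains, Hspa5 (BiP) 96.8 and Dnajb9 98.0. Trib3 had 44.9, and its percentile ran from 4.52 in C57BL/6J to 78.7 in A/J. Immediate early and stress response genes gave 12 of 25 (48.0%) with a median of 89.4, and 12 more had broad shared sites. Btg1 had 98.2 and Fos 71.1, while Klf4 (28.9), Nr4a1 (33.6), Ier3 (37.4) and Myc (39.9) were lower. At these 4 the value of A/J exceeded the mean of the other 6 strains by 42.5, 39.0, 24.4 and 36.3 points.

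Clock genes gave 14 of 21 (66.7%) with a median of 80.3. The repressors Nr1d2 (97.8), Cry2 (97.2), Nr1d1 (95.5), Per1 (92.3) and Per2 (91.3) were high, whereas the output factors Dbp (60.2) and Hlf (65.9) and the activator Npas2 (43.1) were lower. Dbp and Per1 were lower in A/J than in the mean of the other 6 strains, with differences of -49.8 and -23.6 points. The time of day of tissue collection is not given in the labels used here.

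Housekeeping groups were mostly members. Ribosomal proteins gave 26 of 34 genes (76.5%, median 84.0), and the lowest was Rpl4 (45.3, at a site nearer to Zwilch). Proteasome subunits gave 23 of 30 (76.7%, median 85.8), from Psmc4 (99.3) to Psma7 (40.5, nearer to Ss18l1). The respiratory chain gave 21 of 30 (70.0%, median 83.8), from Cycs (97.4) to Atp5a1 (56.2). Splicing and RNA-binding proteins gave 22 of 31 (71.0%, median 90.8), from Srsf5 (97.03) to Srsf6 (52.5). Replication-dependent histones, which are transcribed in S phase, gave 16 of 24 (66.7%) with a lower median of 60.7, from Hist1h3a (81.5, nearer to Hist1h4a) to Hist2h2ac (33.0), and several of them share a site with a neighbouring histone gene. Ribosomal proteins were lower in A/J than in the mean of the other 6 strains at 17 of 26 genes, with a median difference of -10.8 points, while over all genes with a member the median difference was 3.56.

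The tissue label was checked with markers of other cells. Of 30 genes that mark Kupffer, endothelial, stellate, bile duct and blood cells, 2 (6.67%) had a member, Sox9 (68.5) and Stab1 (35.4), 10 were called in 1 to 6 strains and 18 had no site, among them Cd68, Clec4f, Krt19 and Ptprc. Of 23 markers of other tissues, 1 (4.35%) had a member, Ins2 (72.1), which codes for insulin, and 17 had no site. An accessible promoter is no measure of transcription, and the share of each cell type in the tissue cannot be told apart from accessibility within it.

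**Figure D5:**
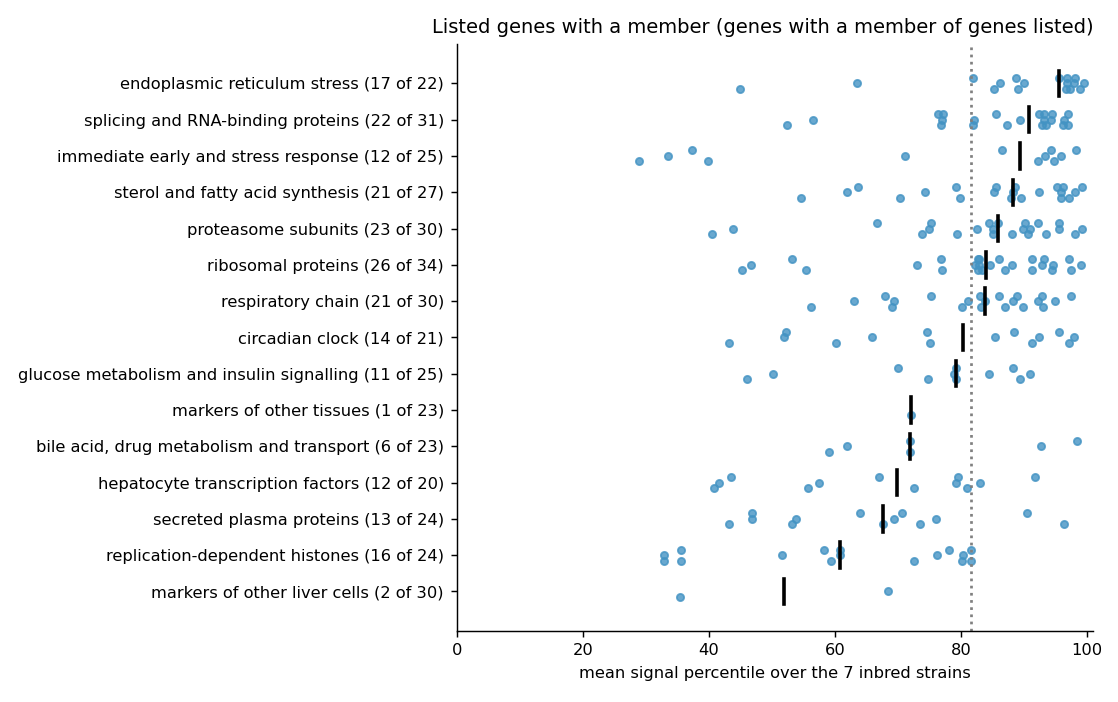
Mean signal percentile over the 7 inbred strains (x axis) of each listed gene with a member, by list, with the count of genes with a member among the autosomal genes listed. Black bars are list medians and the dotted line is the median over all protein-coding genes with a member (81.6), which endoplasmic reticulum stress genes exceed with a median of 95.6 and plasma proteins, with 67.6, do not reach.

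Members and sites just past the limits of the rule had overlapping values. The widest members, at Agpat1 and Rnf5 and at Tmem201, were 1999 bp wide with mean percentiles of 97.7 and 61.8, and the narrowest sites left out, at Akap1, Sorbs3 and Notch1, were 2000 bp wide with 91.4, 78.7 and 75.6. In all, 673 sites near a TSS missed membership by their width alone, with a median of 82.7. The members farthest from a TSS, up to 998 bp, had 39.9 to 70.4, and the closest distal sites, from 1001 bp, had 52.7 to 75.02.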

How the data were processed

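FAIRE-seq was done on liver of 18 male mice, 2 for each of 9 strains. The authors aligned reads with bowtie1 to mm9, for the inbred strains other than C57BL/6J with each strain's SNPs put in, and reads of the recombinant strains to both mm9 and its C3H/HeJ version (which of these gave the lists is not stated), dropped reads with several locations and duplicates, called peaks with F-seq and combined the mice of a strain by IDR. Versions of F-seq and IDR were not found in the sources. The deposited lists hold positions on mm9, a summit offset and a signal value, the F-seq score, which is not scaled between strains. The variable and common sites came from the authors' count-based test between strains. The lists hold no read counts. The study gives reads per library, which were not used here, so no signal value carries a counting error.

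The 7 inbred lists were merged (overlapping or touching peaks) into the union. Any overlap of a peak (1 bp or more) made a site called in that strain, and the strongest peak gave percentile, width and summit. A peak of a recombinant strain counted for every site that it overlapped. TSSs were the 5′ ends of all transcripts of GENCODE M1, on the mm9 assembly, and a member's gene was the protein-coding gene whose TSS was nearest to its midpoint, otherwise the nearest other gene. Comparisons of members with distal shared sites used 1 median or mean per strain and an exact two-sided permutation test over 7 strains, adjusted by the Benjamini-Hochberg method over 3 comparisons at a threshold of 0.05. Shares carry exact 95% Clopper-Pearson intervals. Everything else is a description.

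The text names the 12 highest and 12 lowest members with a protein-coding gene, the 8 with the largest and the 8 with the smallest SD, the highest and lowest gene of each list, every plasma protein and hepatocyte transcription factor with a member, and members at the limits of the rule. Other genes, among them those with gaps between strains, were named after their values were seen, and the counts of gaps, parental differences and repeated words were added then. Members, lists and tests were chosen with earlier results of these data known. Of 392 listed genes, 391 were found in the annotation, 1 by an older symbol, and 2 are not autosomal. Hmgcs1 was not found by name. Some listed genes are not reported here by name. Repeated sequence was counted as 32-base words found elsewhere in the assembly on either strand. Merging, overlap, distances and the permutation test were tested on simulated data. The scripts ran in Python 3.11.15, with pysam 0.24.0 for sequences, scipy 1.17.1 for tests, pandas 2.3.3 and numpy 2.4.6 for tables and matplotlib 3.10.9 for plots.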

Additional observations from a re-analysis of the deposited data

Results flagged for a closer look

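Values given for each of the 7 inbred strains were tested for 1 strain far from the rest by Dixon's rule. Of 44 groups of values, 12 over all members or distal shared sites and 32 of single members, 7 passed it. Chance flags about 1 in 20 groups, a rate that does not apply to the single members, which were chosen by the same percentiles. In 6 of the 7 the strain was A/J.

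Over all sites, A/J stood apart in the difference between promoter and distal median percentile (37.1 points), in its mean absolute deviation from the other strains at distal shared sites (24.1 points), in the difference of that deviation between members and distal shared sites (-9.96 points) and in the share of members at which it was the highest strain (39.7%). These 4 values are linked, since each is computed from the same list.

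Among single members, C230081A13Rik was at 98.8 in A/J and Bach2 at 68.3 in A/J, far from the other 6 strains. Rps6ka5 was at 99.5 in BALB/cJ, but the whole range of its 7 values is less than 1 point.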

How the results depend on the processing

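No paired analysis was possible because each deposited list combines both replicates of a strain, so numbered mice could not serve as a block. The comparisons pair members and distal shared sites within a strain, and strains were left out in turn, with members and distal shared sites chosen anew on the other 6. The values without A/J in the report (14.5 points and 201 bp) keep the sites chosen on 7 strains and lie outside the ranges below. The 3 comparisons of members with distal shared sites kept their direction and an adjusted p under 0.05 in every alternative run (exact permutation test, adjusted p 0.015625 to 0.03125). The difference in median percentile ran from 16.8 to 20.6 points, that in width from 205 to 304 bp and that in deviation from -5.25 to -3.30 points. With percentiles recomputed among members only, the percentile and deviation comparisons cannot be computed. The median correlation between strains over members ran from 0.751 to 0.856. The number of members stayed between 6103 and 8063, except that it fell to 3832 where each strain's peaks had to cover at least 50% of the site. With a strain left out, the differences were 18.1 to 20.6 points, 225 to 255 bp and -4.90 to -3.30 points, the correlation 0.812 to 0.856 and the number of members 7427 (without C3H/HeJ) to 7907 (without A/J). The share of members called in both recombinant strains was 96.2% with 50% coverage and 98.4% (without A/J) to 98.8% with a strain left out. The CpG-island-like share of the upper minus the lower rank group, 28.6 points, was 24.7 with TSSs of gene records only, 22.0 with the 20000 strongest peaks of each list, and 28.8 to 31.4 with a strain left out, the last without A/J. Why these values moved was not tested. Read depth was not used here, and a missing call gives no limit on accessibility.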

Other observations

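Of 17864 autosomal sites within 1 kb of a TSS, 8927 were called in all 7 inbred lists, 4410 in 1 list, and 673 to 1199 in each number of lists from 2 to 6. Sites near a TSS were thus mostly called in every strain or in a single one. Of all 50121 autosomal sites, 13909 (27.8%) were called in all 7 lists. Their counts by the other numbers of lists are not given here, so this pattern is not shown to be particular to sites near a TSS. The strains of the sites in a single list are not given either.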
